A study of Mus musculus with 18 samples.

Results

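CD24low epithelial cells of the adult mouse lung were compared after treatment with an inhibitor of the histone methyltransferase G9a (G9ai) and after vehicle, by the open chromatin regions that were listed in one arm and not in the other. Peaks of 4 deposited lists were merged wherever they overlapped by at least 1 bp, which gave 9969 regions out of 33312 regions over all 10 lists of the series. A region with a peak in both G9ai lists and in no vehicle list was called G9ai-only, and 7172 regions (71.9% of the merged CD24low regions) met this rule. The opposite pattern was called vehicle-only and was met by 2500 regions (25.1%). Of the rest, 18 regions were listed in both arms and 279 in 1 list only. The rule itself fixes these sides, so the counts describe the lists and are no test of the treatment.

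The series profiled lung epithelium of C57BL/6 mice aged 6 to 12 weeks, 3 given the G9a inhibitor and 3 given vehicle, by ATAC-seq, in which a transposase cuts accessible DNA. Cells without CD31 and CD45 on their surface and with Epcam and Sca-1 were sorted by CD24 into CD24-negative (CD24neg), CD24low and CD24high cells, and each library was made from 10000 cells. No allele or transgene is named for any group, while the sources used here do not give dose, route or length of treatment. Libraries of CD24low cells from G9ai replicates 2 and 3 and from vehicle replicates 2 and 3 are described here, and the first replicate of each arm was not analysed here.

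G9a, encoded by Ehmt2, works with its partner GLP, encoded by Ehmt1, to place methyl groups on lysine 9 of histone H3, a mark of silenced euchromatin. Blocking the enzyme lowers that mark, while ATAC-seq reads the accessibility of DNA and not the mark itself. In the airways, Sca-1-positive epithelium with little CD24 is known to contain secretory (club) cells, which line the bronchioles, detoxify inhaled compounds with cytochromes P450 and can regenerate other airway cells. Accessible DNA falls into promoters, which sit at gene starts and are often open in many cell types, and distal elements, many of them enhancers, which differ more between cell types.

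The sequences below show the promoters under the 3 G9ai-only and the 3 vehicle-only regions chosen for high score, a position over the gene start and a role known for the gene. They are shown because these regions are among the highest-ranked of their sides at gene starts, and they were chosen after their values were seen. Each line gives the 250 bases before the start, from RefSeq on GRCm38.p6 (the same assembly as mm10), 5′ to 3′ on the gene's strand. Capitals mark matches to any of 15 short motifs, searched on both strands. The G9ai-only promoters belong to Hey2, a repressor induced by Notch, at chr10:30842784-30843033 (- strand), Cbx8, a Polycomb chromodomain protein, at chr11:119040914-119041163 (- strand), and Ccnt1, the cyclin of the elongation factor P-TEFb, at chr15:98567737-98567986 (- strand). The vehicle-only promoters belong to Sde2, a protein of splicing and genome maintenance, at chr1:180850901-180851150 (+ strand), Ppa1, the cytosolic pyrophosphatase, at chr10:61648371-61648620 (+ strand), and Hacd3, an enzyme of very-long-chain fatty acid synthesis, at chr9:65021718-65021967 (- strand).
Hey2: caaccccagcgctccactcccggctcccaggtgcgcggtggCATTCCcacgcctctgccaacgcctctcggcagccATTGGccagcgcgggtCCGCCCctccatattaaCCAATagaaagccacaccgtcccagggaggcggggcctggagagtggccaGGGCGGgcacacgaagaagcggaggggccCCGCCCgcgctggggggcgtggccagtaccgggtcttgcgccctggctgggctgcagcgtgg
Cbx8: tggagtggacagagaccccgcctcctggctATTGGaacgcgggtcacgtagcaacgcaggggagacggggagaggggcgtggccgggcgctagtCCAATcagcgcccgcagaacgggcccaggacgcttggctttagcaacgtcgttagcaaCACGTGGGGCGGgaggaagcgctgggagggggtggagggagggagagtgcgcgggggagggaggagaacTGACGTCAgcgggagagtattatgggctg
Ccnt1: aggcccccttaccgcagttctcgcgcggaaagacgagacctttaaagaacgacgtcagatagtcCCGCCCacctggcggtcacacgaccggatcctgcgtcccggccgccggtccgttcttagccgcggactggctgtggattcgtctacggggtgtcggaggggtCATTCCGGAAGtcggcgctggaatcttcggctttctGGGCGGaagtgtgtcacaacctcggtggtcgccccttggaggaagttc
Sde2: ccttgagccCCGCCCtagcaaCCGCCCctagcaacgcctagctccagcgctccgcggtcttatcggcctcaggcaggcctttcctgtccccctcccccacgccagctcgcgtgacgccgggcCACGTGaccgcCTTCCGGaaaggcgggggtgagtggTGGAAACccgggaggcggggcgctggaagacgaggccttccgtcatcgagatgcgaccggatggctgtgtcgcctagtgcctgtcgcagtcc
Ppa1: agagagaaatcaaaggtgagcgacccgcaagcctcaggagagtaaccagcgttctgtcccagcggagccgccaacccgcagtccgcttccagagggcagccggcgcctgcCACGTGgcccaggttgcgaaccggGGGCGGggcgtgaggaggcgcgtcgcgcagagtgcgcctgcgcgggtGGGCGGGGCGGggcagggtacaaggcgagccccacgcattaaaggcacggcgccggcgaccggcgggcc
Hacd3: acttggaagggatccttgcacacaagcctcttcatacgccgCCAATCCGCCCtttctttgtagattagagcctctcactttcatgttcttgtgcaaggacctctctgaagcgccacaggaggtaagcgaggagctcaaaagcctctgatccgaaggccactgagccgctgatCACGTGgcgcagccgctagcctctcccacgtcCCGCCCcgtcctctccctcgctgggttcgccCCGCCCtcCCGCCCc

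The region over the Hey2 start (chr10:30842698-30843438) had scores of 665 in G9ai replicate 2 and 408 in replicate 3, placing it at percentiles 99.99 and 99.88 of those lists. The score is the authors' value per peak and serves here for ranks inside one list. No peak was listed there in either vehicle library. The printed Hey2 bases hold 22 CpG pairs, 3 matches to the GC box and 2 to the NF-Y box. Cbx8 (scores 237 and 280) has 1 match to the CREB/ATF motif and 1 to the E-box, and Ccnt1 (241 and 218) has 2 GC boxes. On the other side, the region over the Sde2 start had scores of 390 and 475 in the vehicle lists, the latter the highest score of its list, and no G9ai peak was listed there. The Ppa1 region had scores of 250 and 223 with 3 GC boxes in the printed bases, and the Hacd3 region 167 and 353 with 4. All 3 printed vehicle-only promoters hold an E-box, as does Cbx8. Over all promoter windows touched by regions, the E-box was in 12.3% of the G9ai-only and 13.6% of the vehicle-only ones.

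Small RNA genes were also covered. Of 1005 microRNA hairpins in the RefSeq table, 23 (2.29%) had a G9ai-only and 6 (0.597%) a vehicle-only region within 1000 bp. These counts have to be read beside the sizes of the 2 sets, 7172 and 2500 regions, or 74.2% G9ai-only. Some hairpins also share a region. One G9ai-only region, chr11:75173419-75173870, lay over the hairpins of both Mir212 and Mir132, at percentile 98.3 of the scores in G9ai replicate 2 and 82.7 in replicate 3. These neuron- and immune-linked microRNAs are made from 1 transcript and share a seed, the bases that pair with targets. A G9ai-only region ended 36 bp before Mir203, known for limiting proliferation in stratified epithelium, at percentiles 32.2 and 44.6. Another lay 28 bp from Mir191 and 486 bp from Mir425, and another 393 bp from Mir152. Mir425 also had a vehicle-only region 876 bp away. That region was at a listed start of its host gene Dalrd3, which lies downstream of the hairpin. The mature forms are printed with their seed, bases 2 to 8, in capitals, to show which of them share it.
miR-132-3p: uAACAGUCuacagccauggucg
miR-212-3p: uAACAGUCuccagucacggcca
miR-203-3p: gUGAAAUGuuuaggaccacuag
miR-191-5p: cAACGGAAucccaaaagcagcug
miR-425-5p: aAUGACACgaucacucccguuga
miR-152-3p: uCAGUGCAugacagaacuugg
Only miR-132-3p and miR-212-3p of these 6 have the same seed. The lists measure accessibility at these genes, and the microRNAs themselves were not measured.

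The lists are treatment-specific subsets of the peaks called in each library. They held 7379 and 7361 peaks for G9ai replicates 2 and 3 and 2558 and 2552 for vehicle replicates 2 and 3, which was 8.93%, 10.5%, 3.71% and 4.21% of the highest peak number used in each library's names. A gene without a listed region may therefore be open in both arms. Depth is unknown, since no read counts come with the lists. The G9ai lists held 7370 ± 12.7 peaks (SD, n = 2) against 2555 ± 4.24 (SD, n = 2), and no split of 2 against 2 lists can give a two-sided exact permutation p below the 0.333 found here. Nearly all listed peaks have a partner in the other list of their arm, so agreement of replicates is a property of the lists. Even p-values would measure only the spread between these samples. Within a side the scores of the replicates ranked regions only loosely alike, with a Spearman correlation of 0.271 over the G9ai-only and 0.146 over the vehicle-only regions. Bulk lists cannot tell fewer cells of a type from less signal per cell. Of the sort markers, Epcam, Ly6a (Sca-1), Cd24a and Ptprc (CD45) had no region on either side. Pecam1, the gene of the excluded CD31, had 4 G9ai-only regions, and of 20 endothelial genes 3 had G9ai-only and 2 vehicle-only regions alone, with Cdh5 and Kdr at 0. Their part in the results was not tested. Of the cell-type markers looked up, the club genes Scgb1a1 and Scgb3a2 had 1 G9ai-only region each and Cyp2f2 had 2. Of the alveolar genes, Sftpc had 1 vehicle-only region, Abca3 1 G9ai-only region and Hopx 1 of each side. Lamp3, Ager and Aqp5, also alveolar, had none. The ciliated genes Foxj1 and Tppp3 had 1 G9ai-only region each, while Dnah5 and the basal genes Krt5 and Trp63 had none. Epithelial Cdh1 had 2 G9ai-only regions and leukocyte Spi1 had 1. The labelled population can thus be neither supported nor contradicted by defining markers here.

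Vehicle-only regions sat at gene starts more often than G9ai-only regions. Gene starts came from the RefSeq promoter table, which covers 17492 of 21887 protein-coding genes and none on chromosome 18, so shares are over the other chromosomes. Within 1000 bp of a start lay 955 of 6929 G9ai-only regions (13.8%, with a 95% Wilson interval from 13.0% to 14.6%). The vehicle-only count was 510 of 2420 (21.1%, from 19.5% to 22.7%). These intervals cover counting error only. Regions spanning the start itself made up 4.70% and 8.97%. More than 50 kb from any listed start lay 35.0% of the G9ai-only and 28.3% of the vehicle-only regions. The median distance was 27011 bp with G9ai and 16240.5 bp with vehicle. Among regions 1 to 1000 bp from a start, 45.0% with G9ai (Wilson 41.1% to 48.9%) and 37.9% with vehicle (32.5% to 43.6%) lay upstream, so on both sides the gene body side held more.

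**Figure D1:**
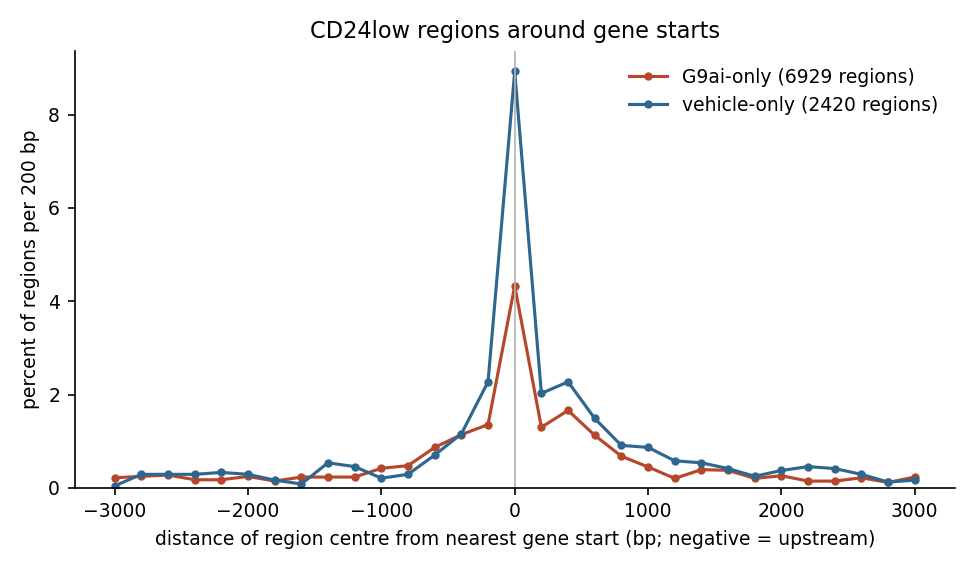
Percent of regions per 200 bp (y axis) by distance of the region's centre from the nearest gene start (x axis, bp, negative upstream), with 1 line per side. Both sides peak over the start, and the central bin holds 4.33% (G9ai-only) and 8.93% (vehicle-only).

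In single lists the share near starts was 13.9% and 13.8% for G9ai replicates 2 and 3 and 20.8% and 21.1% for vehicle replicates 2 and 3. The arms did not overlap, and the means were 13.8% ± 0.0732 (SD, n = 2) and 21.0% ± 0.179 (SD, n = 2; two-sided exact permutation p = 0.333, the smallest possible). In each population of the series the arm with the longer lists had the lower share. In CD24neg, where the vehicle list was the longer with 8870 peaks, that list had 12.3% near starts against 15.5% and 15.6% in the G9ai lists. In CD24high the vehicle list of 12985 peaks had 11.3% against 18.7% and 18.8%. The part of list length in the CD24low difference was not tested. Within CD24low, the vehicle-only share near starts was 17.0% in the lowest, 19.9% in the middle and 26.3% in the highest of 3 equal parts by score. The G9ai-only share was 14.0%, 13.1% and 14.2% in the same order, so the sides differed most among their best-scored regions.

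**Figure D2:**
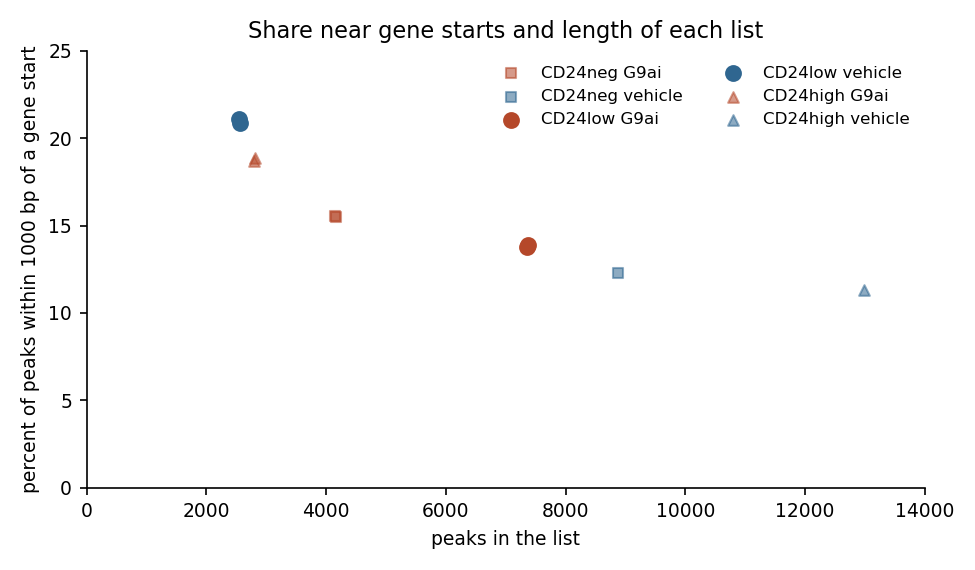
Percent of peaks within 1000 bp of a gene start (y axis) against the number of peaks in the list (x axis), 1 point per list for all 10 lists, coloured by arm and shaped by population. The longest list, CD24high vehicle, has the lowest share (11.3%), and the CD24low vehicle lists, the shortest, have the highest (20.8% and 21.1%).

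The promoters under the vehicle-only regions were richer in GC and CpG. RefSeq windows from 250 bases before to 50 after the start were used. Over all 21263 windows the median GC content was 56.3%, and 41.0% of windows were CpG-rich, defined as at least 55% GC with an observed-to-expected CpG ratio of at least 0.6. The 513 windows touched by G9ai-only regions had a median GC of 60.0% with 55.8% CpG-rich, and the 317 touched by vehicle-only regions 63.3% with 63.1%. By list the median GC was 59.7% and 60.0% with G9ai and 63.3% and 63.5% with vehicle, without overlap of the arms. In CD24high, where the G9ai lists were the short ones, GC was 64.3% and 65.3% with G9ai and 59.3% with vehicle, so GC content also followed list length there.

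Motifs differed between the sides in both directions. The GC box of Sp and KLF factors (GGGCGG) was in 46.2% of all windows, in 59.6% of the G9ai-only and in 68.5% of the vehicle-only windows. The ETS motif (CCGGAAG) was in 11.6% of all, 17.3% of the G9ai-only and 11.7% of the vehicle-only windows, and the CREB/ATF motif (TGACGTCA) in 2.23%, 3.51% and 1.26%, the last being 4 windows. The E-box (CACGTG), in 7.84% of all windows, was at 12.3% and 13.6%. The NF-Y box (CCAAT) was in 38.2% of all windows but in 26.5% and 25.9% of those with regions. RUNX (TGTGGT) stood at 14.97% of all, 9.94% and 9.15%, TEAD (GGAATG) at 13.6%, 11.1% and 9.46%, and the TATA box (TATAAA) at 12.6%, 7.21% and 6.62%. NRF1 (CATGCGC) was in 4.80%, 6.63% and 7.26%, YY1 (AAGATGG) in 6.24%, 8.19% and 7.26%, and AP-1 (TGANTCA) in 6.99%, 4.68% and 5.36%. NKX2-1 (CAAGTG) was in 13.1%, 14.0% and 11.7%, RFX (GTTNCCA) in 15.8%, 17.5% and 14.2%, forkhead (TGTTTAC) in 3.01%, 3.31% and 3.47%, and ZNF143 (ACTACAA) in 3.60%, 2.53% and 2.52%. The GC box and the CREB/ATF motif thus differed most between the sides in points and in ratio, in opposite directions. Among CpG-rich windows alone, the GC box was in 79.8% of all, 74.1% of the G9ai-only and 86% of the vehicle-only windows, so the G9ai-only share lay below that of all windows there. In the same windows the ETS motif was in 19.7%, 19.9% and 11%, and the CREB/ATF motif in 3.69%, 5.59% and 2%. The motifs can overlap one another, and a match is a string of letters and not a bound site.

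At gene starts, 985 of the 17492 genes with a start (5.63%) had a G9ai-only and 532 (3.04%) a vehicle-only region within 1000 bp. After Hey2, the best-ranked G9ai-only region lay over the shared start of Pqbp1 and Timm17b (scores 568 and 417). These encode a splicing-linked factor and a subunit of the mitochondrial import channel. The next lay over the start of Fuca2, a fucosidase gene (447 and 433). Rbx1, the RING subunit of cullin ubiquitin ligases, had its region 241 bp downstream of the start (328 and 373). Hnrnpf, a splicing regulator, had one 64 bp upstream (308 and 264), and Nqo2, a quinone reductase, one over its start (284 and 224). Vps8, of an endosomal tethering complex, Zfp113, a zinc finger gene, and Mknk2, a kinase of the translation factor eIF4E, were also among the best-ranked, as were Ilvbl and Tspan8, each with no vehicle-only region. Kitl, the ligand of the receptor Kit, had a G9ai-only region over its start (288 and 139), but its gene span held 5 G9ai-only regions and 1 vehicle-only region.

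On the vehicle side, the best-ranked regions at starts after Sde2, Ppa1 and Hacd3 belonged to Stard7, a lipid carrier of mitochondria (138 and 216, 372 bp downstream), and to Cct7, a subunit of the chaperonin that folds actin and tubulin, with its neighbour Pradc1 (177 and 147). Ngrn, needed for the mitochondrial ribosome, had scores of 198 and 132, and the overlapping genes Adat3 and Scamp4 315 and 129. Pam16, a part of the mitochondrial import motor, had 125 and 139, and Fgd1, an exchange factor for Cdc42, 117 and 184. The region of Polh, the translesion DNA polymerase eta, lay 130 bp upstream of its start (203 and 122). Klhl7, an adaptor of a cullin ligase, had 2 vehicle-only regions in all. Gpx8, a peroxidase of the endoplasmic reticulum, had regions of both sides at its start, 144 bp apart.

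In 44 genes both sides had a region within 1000 bp of a start. The closest such pair was at Enah, which promotes actin filament growth, where the G9ai-only region (chr1:182020086-182020255) and the vehicle-only region (chr1:182019898-182020028) were 57 bp apart. At Slc24a3 the gap was 70 bp, at Itm2b 71 bp and at Map1s 99 bp. The vitamin D receptor gene Vdr also belonged here. Its vehicle-only region (chr15:97907317-97907507) lay 789 bp downstream of the start with scores of 157 and 128, and a G9ai-only region (chr15:97908173-97908450) lay nearby with scores of 124 and 81. Cyp27b1, whose enzyme activates vitamin D, had 1 vehicle-only region, and Cyp24a1, whose enzyme degrades it, had 1 G9ai-only region.

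Counted over gene spans with 1000 bp on either side, G9ai-only regions were linked to 3489 of 21887 protein-coding genes (15.9%) and vehicle-only regions to 1628 (7.44%). Of these genes, 2878 were linked to the G9ai side alone, 1017 to the vehicle side alone and 611 to both. Genes with both were long, with a median length of 99.8 kb, against 40.5 kb for genes with G9ai-only regions alone, 27.4 kb for genes with vehicle-only regions alone and 13.7 kb for genes without a region. The share of genes with a G9ai-only region went from 4.05% of genes under 5 kb to 48.0% of genes over 500 kb, and that for vehicle-only regions from 2.09% to 19.4%, with 21.0% at 200 to 500 kb. The G9ai side of all links was also higher in longer genes, from 66.6% in genes under 5 kb to 82.7% in genes over 500 kb. Counts for lists of long genes have to be read beside these shares.

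**Figure D3:**
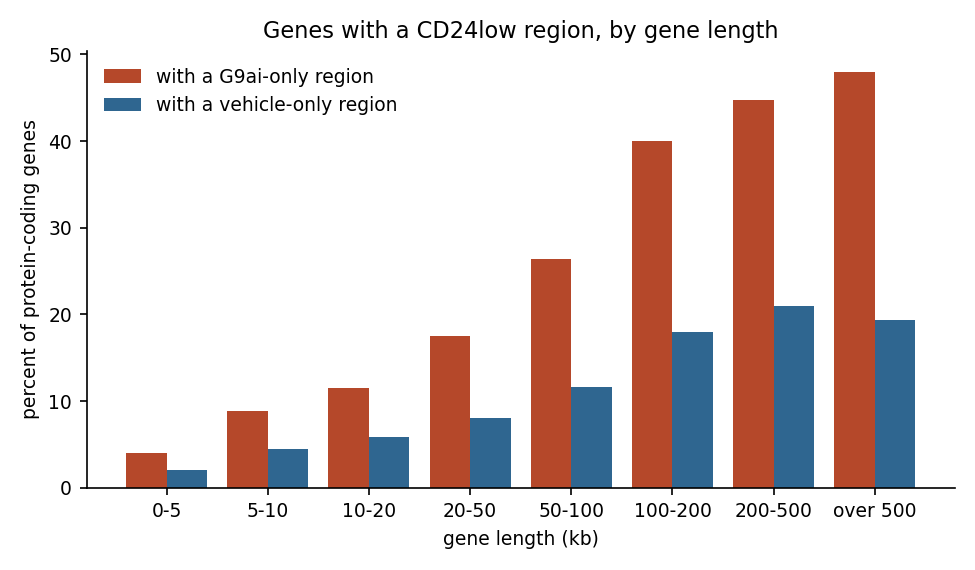
Percent of protein-coding genes (y axis) with a G9ai-only or a vehicle-only region, by gene length in kb (x axis). Both shares are higher in longer genes, except that the vehicle-only share is 21.0% at 200 to 500 kb and 19.4% above, and the G9ai-only share is the higher in each band, at 4.05% and 2.09% in the shortest and 48.0% and 19.4% in the longest.

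Several genes held many G9ai-only regions and no vehicle-only region. Arhgef3, a guanine nucleotide exchange factor, had 8, all inside the gene, with scores from 47 to 149 in G9ai replicate 2 and from 44 to 107 in replicate 3. Its best was chr14:27351865-27352059, 9330 bp from a start (149 and 107). Sipa1l3, a regulator of Rap1 and epithelial polarity, had 7, the best at chr7:29392716-29393057 (224 and 95). Plcb1, a phospholipase C driven by Gq-coupled receptors, had 7 in 689.1 kb, and Samd4 (an RNA-binding repressor of translation), Snx29 (a sorting nexin) and Auts2 (linked to Polycomb complexes) had 7 each. Bcor, a corepressor of a variant Polycomb complex on the X chromosome, had 6 in only 123.8 kb, with scores of 57 to 111 and 54 to 86. Shroom3, which drives apical constriction of epithelial cells, and Sh3rf1, a scaffold of JNK signalling, had 6 each, as did Nedd4l, the ubiquitin ligase that removes the epithelial sodium channel, and Chrm3, a muscarinic receptor. Atg7, the enzyme that activates both ubiquitin-like systems of autophagy, had 5, of which chr6:114690606-114690908 scored highest (200 and 120). Fto, an RNA demethylase, Slco3a1, an organic anion transporter, and Naaladl2 also had 5 each.

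Genes with several vehicle-only regions and no G9ai-only region were fewer. Mical2, an oxidoreductase that disassembles actin filaments, had 4. Its scores were 71, 45, 104 and 51 in vehicle replicate 2 and 124, 171, 85 and 69 in replicate 3, and the first of them, chr7:112226630-112226808, lay 794 bp from a start. Iqsec1, an exchange factor for Arf6, Adora1, an adenosine receptor, Myo5a, an actin motor that carries vesicles, and Cxxc5, a CpG-binding regulator of Wnt signalling, had 3 each. Of 1017 genes with vehicle-only regions alone, 5 reached 3, against 169 of 2878 on the G9ai side. The G9ai-only set is also the larger, with 7172 regions against 2500. The part of set size in these counts was not tested. Ehmt2 itself had 2 vehicle-only regions in 15.6 kb, chr17:34900048-34900137 (41 and 58) and chr17:34912191-34912316 (103 and 108), and Ehmt1 had none on either side. Baz2a, which silences ribosomal DNA, had 2 close to its start, 12 bp and 522 bp away. Kdm3b, a demethylase of H3K9, Smarcal1, a DNA annealing helicase, Crocc, the ciliary rootlet protein, and Mlxipl, a glucose-sensing factor, had 2 each. The Smarcal1 region at chr1:72537013-72537299 lay 45952 bp from a Smarcal1 start and spanned the start of another gene, Marchf4.

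Sides were often mixed within 1 gene. Rad51b, a recombination gene of 551 kb, held 12 G9ai-only and 3 vehicle-only regions, the most of any gene. Its best G9ai-only region was chr12:79463294-79463855 (296 and 130), and the vehicle-only regions scored 50 to 73 and 61 to 111. Arhgap26 held 7 and 3, Dab2ip and Vps13d 6 and 3 each, Arhgap32 and Foxn3 4 and 3 each, and Ank3 3 and 3. In Dst, which links intermediate filaments to other cytoskeletal fibres and had 5 and 3, a G9ai-only region (chr1:34011124-34011288) lay 189 bp from a vehicle-only region (chr1:34011478-34011625) that spanned a start.

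**Figure D4:**
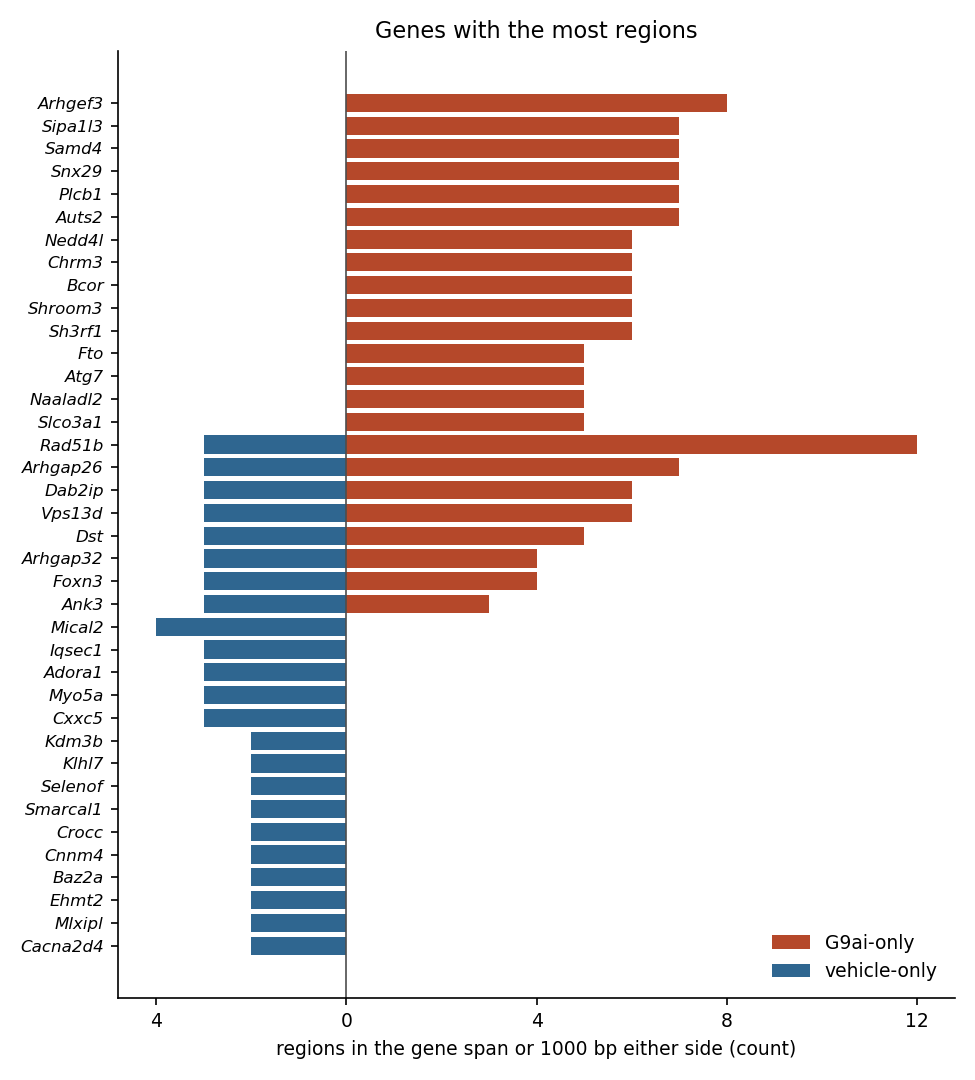
Number of regions in each gene span with 1000 bp on either side (x axis), G9ai-only to the right and vehicle-only to the left of 0, for the genes with most regions of 1 side and for 8 genes with at least 3 of each. Arhgef3 leads the single-sided genes with 8, Mical2 leads the vehicle side with 4, and Rad51b has 12 and 3.

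Neighbouring regions were of the same side about as often as the overall shares alone would give, which is 61.7%. The value was 62.7% of 370 pairs with a gap under 1 kb, 59.6% of 938 pairs at 1 to 10 kb, 62.8% of 4063 pairs at 10 to 100 kb and 61.8% of 4277 pairs farther apart. These differences were not tested. The closest opposite pair was 30 bp apart, and 14 opposite pairs had gaps under 100 bp. By chromosome, the G9ai-only share of the regions ran from 70.7% (Wilson 66.8% to 74.4%) on chromosome 9 to 77.7% (73.5% to 81.4%) on chromosome 13, around 74.2% overall. The X chromosome had the fewest regions of both sides per gene among chromosomes with any, 17.3 and 5.28 per 100 protein-coding genes against 32.8 and 11.4 over all genes. The densest megabase, at 19 to 20 Mb of chromosome 7, held 25 G9ai-only and 5 vehicle-only regions, and that at 80 to 81 Mb of chromosome 10 held 19 and 11. The megabase from 112 Mb on chromosome 7, with Tead1 and Mical2, held 11 and 9. Vehicle-only regions were in the majority in 183 of 1894 megabases with a region. Outside protein-coding genes lay 40.2% of the G9ai-only and 36.9% of the vehicle-only regions, and 21.0% and 21.6% of these fell in a long non-coding RNA gene. Lncpint and Junos had 4 G9ai-only regions each and no vehicle-only region, and Airn, the imprinted antisense transcript at Igf2r, had 1 and 2. More than 500 kb from any protein-coding gene lay 43 G9ai-only and 3 vehicle-only regions.

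Gene groups were then described by function. Over all 21887 protein-coding genes, 15.9% had a G9ai-only and 7.44% a vehicle-only region, whether or not the other side was also present. G9ai-only regions alone were linked to 2878 of these genes, vehicle-only regions alone to 1017, and both sides to 611. Group counts of genes with a single side alone have to be read beside those counts. The background for regions was a 73.1% G9ai-only share among gene-linked regions. Of 39 groups with at least 20 regions, none had an exact 95% binomial interval that left out 73.1%, and their shares ran from 58.6% to 87.5%. The intervals are wide, so at this number of regions the direction of these groups could not be told from the background. What follows gives counts and names. The groups were drawn up with earlier results of these data known.

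**Figure D5:**
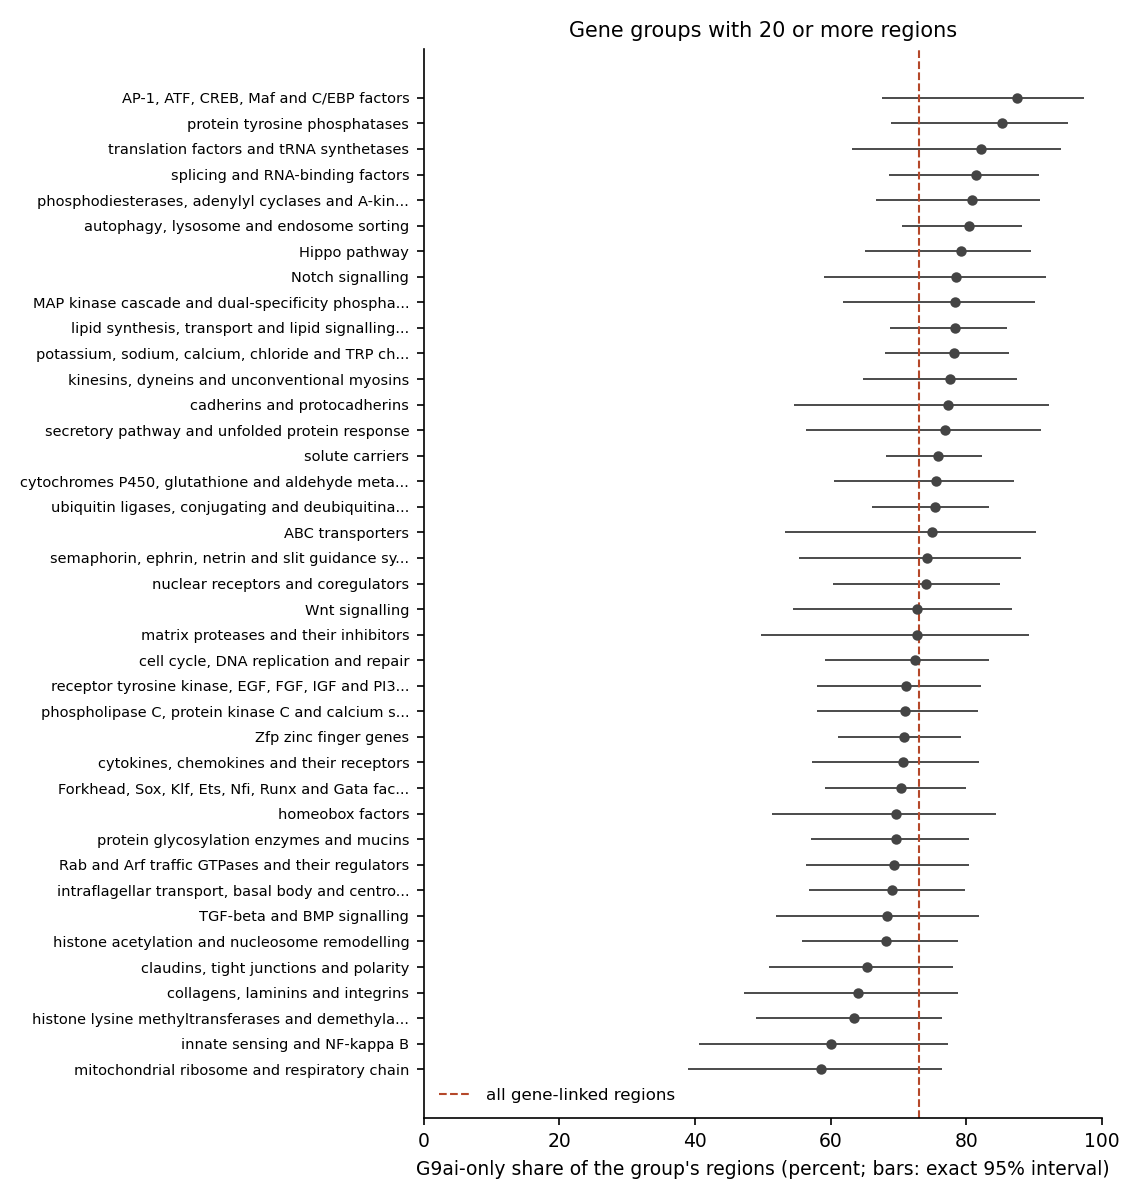
G9ai-only share of the regions linked to each group (x axis, percent) for the 39 groups with 20 or more regions, with exact 95% binomial intervals that treat regions as independent. The dashed line marks the 73.1% of all gene-linked regions, and it lies within the interval of each group.

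In the Hippo pathway, which limits the growth-promoting coactivators YAP and TAZ, 17 of 28 members had a G9ai-only region, 12 of them alone, and 6 a vehicle-only region, over 38 and 10 regions. The median length of 73.2 kb bears on this, since 26.4% of all genes of 50 to 100 kb had a G9ai-only region. Yap1 (scores 60 and 44) and Wwtr1, which encodes TAZ (82 and 48), had 1 G9ai-only region each, Tead4 and Ptpn14 had 3 and 4, and Tead1, a DNA-binding partner of YAP, had 3 of each side. The kinase gene Lats2 had 3 and 1, and Sav1, an adaptor of the upstream kinases, 1 vehicle-only region (107 and 251). Among 38 protein tyrosine phosphatases, 12 were linked to the G9ai side alone, 1 (Ptpn18) to the vehicle side alone and 4 to both, with 29 and 5 regions (85.3%, exact 68.9% to 95.05%). Their median length was 93.6 kb, in the same length band as the Hippo genes, and within 1000 bp of gene ends they had only 3 and 2 regions. Ptprm had 4 and 1, Ptprk 3 and 1, and Ptprg 1 and 1.

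Developmental signalling was split by gene. In the Notch pathway, which balances secretory and ciliated fates in the airway, 9 of 34 genes were linked to the G9ai side alone, 2 to the vehicle side alone and 3 to both. The receptors Notch1, Notch2 and Notch3 had 2, 3 and 3 G9ai-only regions, with 0, 1 and 1 vehicle-only regions. The nuclear partner Rbpj and the targets Hey2 and Heyl had 1 G9ai-only region each. The ligand Jag1 had 2 vehicle-only regions and the glycosyltransferase Lfng 1 (76 and 154), each with one within 1000 bp of a start. In TGF-beta and BMP signalling, 13 of 63 genes had G9ai-only and 9 vehicle-only regions alone. The ligand Tgfb1 (197 and 119) and the co-mediator Smad4 were among the former, and the receptors Tgfbr2 (111 and 72) and Bmpr1a (161 and 85), the mediators Smad2 and Smad5 and the inhibitor Smad7 among the latter. Smad3 had 3 G9ai-only and 1 vehicle-only region. The 28 and 13 regions of this group gave 68.3%, but within 1000 bp of gene ends it had 6 and 8 (42.9%), so the larger side depended on how regions were linked. In the Wnt pathway the split was 11, 6 and 3 of 62 genes, with Ctnnb1 (beta-catenin), Lgr4 and Rnf43 on the G9ai side and Apc, Znrf3 and Wnt7b on the vehicle side.

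Transcription factors of the lung appeared on both sides. Nkx2-1, which defines lung epithelium (42 and 59), Foxa1 (67 and 57) and Klf4 (94 and 84) had 1 vehicle-only region each and no G9ai-only region. Klf5 (104 and 94) and Foxj1, the factor of ciliated cells, had 1 G9ai-only region each, and Runx1 had 4 and 1. Of 51 AP-1, ATF, CREB, Maf and C/EBP genes, 9 had G9ai-only regions alone, among them Creb1, Creb5, Creb3l2, Atf6 and the coactivator gene Crebbp (best scores 306 and 84), and 2, Fosb and Nfe2, vehicle-only regions alone. Their 21 and 3 regions gave a share of 87.5% (exact 67.6% to 97.3%), of which Bach2 alone held 6 and 1. Within 1000 bp of gene ends the group had 4 and 2 (66.7%), which is too few to set against a background. In innate sensing and NF-kappa B, 12 of 94 genes had G9ai-only and 8 vehicle-only regions alone. The inhibitor gene Nfkbia (118 and 110), Irf1 (83 and 48) and Traf1 (75 and 151) were on the vehicle side and Relb, Irak4 and Ripk1 on the G9ai side. Stat3 had 2 vehicle-only regions, and Il33, an alarmin of epithelium, had 1.

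Chromatin regulators were found on both sides, and the intervals of the larger groups include the 73.1% of all gene-linked regions. Of 106 histone lysine methyltransferase, demethylase and reader genes, 19 had G9ai-only and 12 vehicle-only regions alone, with 33 and 19 regions (63.5%, exact 49.0% to 76.4%). Cbx8, Cbx5 (the HP1 protein that reads H3K9 methylation), Jarid2 and Atf7ip (127 and 135) were on the G9ai side, and Ehmt2, Kdm3b, Kdm2a (113 and 157), Dot1l and Cdyl (79 and 152) on the vehicle side. Of 99 genes of acetylation and remodelling, 26 had G9ai-only and 12 vehicle-only regions alone, over 47 and 22 regions (68.1%, exact 55.8% to 78.8%), with Ep300, Chd4 and Hdac1 among the former and Smarca2, Kat2a and Sirt1 among the latter. Among 14 genes caught by names of DNA methylation, Dnmt3a had 1 G9ai-only region (107 and 53), and Dnmt1 (70 and 58) and Tet1 (101 and 110) 1 vehicle-only region each. The other two on the vehicle side, Uhrf1bp1 and Uhrf1bp1l, share only part of a name with this function. These 5 regions are too few to set against the background.

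Among RNA processing and membrane traffic genes, both sides had members. Of 131 splicing and RNA-binding genes, 24 were linked to the G9ai side alone, 5 to the vehicle side alone and 4 to both, with 44 and 10 regions (81.5%, exact 68.6% to 90.7%), and 12 and 5 had one at a start. Srsf2 (200 and 134) and Hnrnpf were listed at their starts, and Mbnl1 had 3 G9ai-only regions. Of 143 autophagy, lysosome and sorting genes, the split was 35, 9 and 4, with 70 and 17 regions (80.5%, exact 70.6% to 88.2%), including Ulk1 with 2 G9ai-only regions (best 103 and 107) and Atg12 on the vehicle side. Mitochondrial ribosome and respiratory chain genes, 187 in number, had 14, 10 and 2, with 17 and 12 regions (58.6%, exact 38.9% to 76.5%). None of the 1518 olfactory, vomeronasal and taste receptor genes, most of them short and silent outside sensory tissue, had a region on either side.

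In the group of airway secretory genes, 10 of 61 had G9ai-only regions alone, 1 both and 0 vehicle-only regions alone. Of 52 with a start, 5 had a G9ai-only region there against 0. Over all protein-coding genes, 15.9% had a G9ai-only and 7.44% a vehicle-only region, and 5.63% and 3.04% of those with a start had one there. The group's median length was 2.024 kb, and in genes under 5 kb the gene-span shares were 4.05% and 2.09%. Whether the group differs from these shares was not tested. Scgb1a1, the main secreted protein of club cells, had its region at chr19:9087796-9088263 (226 and 88), Gabrp at chr11:33579640-33580016 (472 and 76), just outside the gene, and Reg3g, an antibacterial lectin, one at its start (71 and 70). Scgb3a1 (134 and 80) and Cyp2f2 also had one at the start. Bpifb1, a secreted airway defence protein, had 1 G9ai-only (103 and 69) and 2 vehicle-only regions. The 12 and 2 regions gave 85.7%, with an exact interval of 57.2% to 98.2% that includes the 73.1% of all genes. Tight junction and polarity genes split 10, 5 and 10 of 74, with Ocln on the G9ai side, Cldn7 (71 and 104) on the vehicle side, and 3 and 2 regions in Tjp1.

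In the lists of CD24neg and CD24high, 70.9% of the G9ai-only and 67.5% of the vehicle-only regions met no peak. Those lists are arm-specific subsets as well, so a region without a peak there may be open in those cells. The CD24high vehicle list met 13.9% (Wilson 13.1% to 14.7%) and 16.6% (15.2% to 18.1%) of the G9ai-only and vehicle-only sets, and the CD24high G9ai lists 4.43% and 4.49%, and 4.08% and 4.04%. The CD24neg vehicle list met 8.78% and 10.5%, and the CD24neg G9ai lists 5.87% and 5.91%, and 6.24% and 6.32%. The vehicle lists of these populations are the longer ones, and per 1000 peaks of a list the order turned. On that scale CD24high G9ai lists met 1.58% and 1.59% of the G9ai-only regions against 1.07% for vehicle, and CD24neg G9ai lists 1.41% and 1.42% against 0.990%. Vehicle-only regions had the same order, with 1.46% and 1.43% against 1.28% in CD24high and 1.495% and 1.52% against 1.18% in CD24neg. In all 3 populations, 21 regions (0.293% of the G9ai-only regions) were on the G9ai side. They include regions in Runx1, Tnc, Fat3, Celf2 and Rbm47. On the vehicle side 60 were (2.4% of the vehicle-only regions). Those include regions at the starts of Polr2a, Psmd1, Psmd11 and Kat2a and inside Kdm2a and Cyp27b1. The opposite pattern also occurred. Of the CD24low regions, 126 G9ai-only regions (1.76%) were listed in the vehicle arm of both other populations. In turn, 10 vehicle-only regions (0.4%) were listed in G9ai in both. The vehicle arm of CD24neg and of CD24high is 1 list each, longer than the G9ai lists. The part of list length in these 4 counts was not tested.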

How the data were processed

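ATAC libraries followed Corces et al., per the labels' protocols. FastQC, Bowtie2 and MACS2 were used on mm10, per the submitters' processing notes; the sources used here give no versions, read shifting, duplicate removal or peak thresholds. The authors deposited peak intervals with a score per peak, called per library, per the peak names in the files; how arm-specific peaks were selected is not stated there. The scale of the deposited score is unknown, so it served as a rank within a list. Exact repeats (47 to 472 lines per file) were dropped. Peaks were merged with Python 3, and percentiles, Wilson and exact 95% intervals and exact permutation tests were computed with pandas and SciPy. Genes, gene starts, promoters and microRNAs came from RefSeq tables of GRCm38.p6. The merging and linking were tested on simulated data. The members and gene lists were chosen with earlier results of these data known, and the motifs after the files were seen. Named genes were those with most regions of 1 side (15 per side), the best-scored regions at starts (15 per side), up to 4 per group and side, up to 8 genes with at least 3 regions of each side, group genes with 3 or more regions of 1 side alone, and G9a and sort genes. Gm, Rik, Olfr and Vmn symbols were left out. Further genes were picked by role after their values were seen. Replicate numbers come from the titles and name no shared mouse. The other 8 samples were not analysed here. Gene groups not named in the text are not reported here.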

Additional observations from a re-analysis of the deposited data

Results flagged for a closer look

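The direction between arms differed between populations, and the difference was not tested. The log2 ratio of peaks per list, G9ai over vehicle, was 1.53 in CD24low, -1.09 in CD24neg and -2.21 in CD24high. The share of peaks near a gene start, G9ai minus vehicle, was -7.14 percentage points in CD24low, 3.27 in CD24neg and 7.49 in CD24high. Each value rests on 2 G9ai lists and on 2 vehicle lists in CD24low but 1 in the other populations, and every list of an arm lay on the same side of the other arm.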

How the results depend on the processing

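Merging with a stricter overlap gave 6993 G9ai-only and 2430 vehicle-only regions, and merging across gaps of up to 100 bp 7165 and 2508. Keeping the upper part of each list by score left 2191 and 698 regions in 1314 and 529 genes, since fewer peaks entered. Counting genes within 1000 bp of either gene end gave 1322 and 679 genes, and a 10000 bp margin 4906 and 2372. With a replicate block, pairing equal numbers, the differences between arms were the same (4815 peaks, 29.5 bp of median width, -7.14 and -3.04 percentage points near starts and inside genes) with exact p = 0.5, the smallest that 2 pairs allow; the numbers name no shared mouse. Median peak width rests on 1 library: it was 183 and 140 bp in G9ai replicates 2 and 3 and 129 and 135 bp with vehicle, and without G9ai replicate 2 the difference was 8 bp. Leaving out each replicate in turn gave 7173 to 7361 G9ai-only and 2500 to 2543 vehicle-only regions. The gene groups were counted here together with the set of all protein-coding genes. With links to gene ends, 20 of these moved outside their exact interval and 30 did not. With the upper part of each list, 13 moved and 39 did not. At gene ends the G9ai-only share was 42.9% for TGF-beta and BMP genes (68.3% over gene spans), 57.1% for Notch (78.6%), 66.7% for AP-1 and CREB (87.5%) and 68% for autophagy and sorting genes (80.5%). Over all genes the G9ai side also weighed less near starts. There 955 G9ai-only and 510 vehicle-only regions lay within 1000 bp of a start, against 4572 and 1685 linked to gene spans. The lower group shares at gene ends have to be read beside that. In the upper part the G9ai-only share was 83.3% for TGF-beta and BMP, 90.9% for Wnt (72.7%) and 93.5% for autophagy and sorting genes. The depth of the libraries is unknown, and a region absent from a list may be open in both arms.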

Other observations

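Regions listed in all 4 CD24low libraries, 18 in number, belong to neither side. They include one near Klf16, a GC-box binding factor (scores 105 and 88 with G9ai, 57 and 102 with vehicle), one in Txnrd2, the mitochondrial thioredoxin reductase (89 and 114, 130 and 102), one in Lama5, an epithelial laminin (67 and 97, 42 and 81), and one in Rbms1 (124 and 81, 71 and 58). The merged region in Dmtn joined 2 peaks of G9ai replicate 2 and 1 of each other library. The 279 regions in a single list comprised 135 from G9ai replicate 2, 86 from G9ai replicate 3, 31 from vehicle replicate 2 and 27 from vehicle replicate 3.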
